A study of Mus musculus with 10 samples.

Results

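ZBTB38 belongs to a small set of mouse proteins that read DNA methylation, and the transcripts of 8 genes of this kind were followed in germinal center B cells with and without Zbtb38. The genes were Zbtb38, its paralogs Zbtb4 and Zbtb33, the methyl-CpG-binding domain genes Mbd1, Mbd2, Mbd3 and Mbd4, and Uhrf1. Members were matched by gene symbol, and each symbol matched 1 of the 22380 genes quantified. All 8 passed the filter on low counts in every comparison. The comparisons asked whether any other reader was transcribed at a higher level where Zbtb38 had been deleted.

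The series holds 10 RNA-seq libraries of NP-binding GL7+IgD- germinal center B cells from the C57Bl6/N strain, sorted after immunization with the hapten NP coupled to ovalbumin in alum. ZBTB38 WT mice (2 libraries) carried floxed alleles on both chromosomes and no Cre. ZBTB38 HET mice (2 libraries) had 1 floxed allele with Vav-Cre, and ZBTB38 KO mice (6 libraries) had both floxed alleles with Vav-Cre. Every group therefore carried a floxed allele, and all floxed alleles go back to 1 founder animal. Vav-Cre is active mainly in hematopoietic cells, so other blood lineages of the HET and KO mice had also recombined. Since Cre was present in HET and KO and absent from WT, Cre and the loss of Zbtb38 cannot be told apart between KO and WT. The age of the mice was not given in the sources used here. The study counts the WT and KO libraries of these comparisons as mice, while the labels do not name the animal behind each library, and p-values measure the spread between libraries.

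Methylated CpG is read by several unrelated protein folds. Zbtb38, Zbtb4 and Zbtb33 (Kaiso) form the Kaiso family, which has an N-terminal BTB/POZ domain that recruits corepressors and C-terminal zinc fingers that bind methylated CpG. Mbd1, Mbd2 and Mbd4 bind methylated CpG through a methyl-CpG-binding domain, whereas Mbd3 has a domain of this kind with little preference for methylated DNA and, like Mbd2, forms part of the NuRD deacetylase and remodelling complex. Mbd4 is also a DNA glycosylase that removes thymine or uracil mispaired with guanine, the lesion left by deamination at CpG. Uhrf1 binds hemimethylated DNA behind the replication fork and brings in the maintenance methyltransferase Dnmt1. Germinal center B cells divide rapidly and mutate their immunoglobulin genes by cytosine deamination.

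The coding start of Zbtb38 is shown because the deletion removes the exon that opens with it. By Gencode vM21 (GRCm38), this last exon covers 6260 bases of chromosome 9, from 96682770 to 96689029 on the minus strand, and holds the whole coding sequence. The first 90 coding bases (chr9:96688940-96689029) are present in 5 of the 5 quantified Zbtb38 transcripts. The start codon is in capitals.
Zbtb38 coding start: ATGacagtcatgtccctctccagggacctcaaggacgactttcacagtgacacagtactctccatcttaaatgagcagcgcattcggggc
The upstream windows of Zbtb4 and Zbtb33 are shown because these are the closest relatives of Zbtb38 and the 2 members with the lowest levels. Each window is the 250 bases before the transcription start in RefSeq (GRCm38.p6), with every CpG in capitals. The Zbtb4 window lies on the plus strand at chr11:69765662-69765911 and the Zbtb33 window on the plus strand at chrX:38189543-38189792.
Zbtb4 upstream window: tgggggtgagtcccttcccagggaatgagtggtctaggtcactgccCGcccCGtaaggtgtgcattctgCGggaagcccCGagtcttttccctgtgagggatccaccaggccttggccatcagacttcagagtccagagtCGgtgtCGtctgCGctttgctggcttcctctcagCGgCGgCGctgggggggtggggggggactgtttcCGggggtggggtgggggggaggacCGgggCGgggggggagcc
Zbtb33 upstream window: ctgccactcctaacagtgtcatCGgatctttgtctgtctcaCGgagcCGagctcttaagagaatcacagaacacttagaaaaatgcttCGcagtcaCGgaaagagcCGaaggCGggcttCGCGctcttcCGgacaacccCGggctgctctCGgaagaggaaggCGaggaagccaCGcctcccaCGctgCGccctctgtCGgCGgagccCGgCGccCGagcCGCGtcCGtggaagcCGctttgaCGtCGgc
The Zbtb4 window held 13 CpG, and 68.5% of the 32851 windows of the same length held fewer. The Zbtb33 window held 27 CpG, and 91.4% held fewer, with a median of 6 over all windows. CGCG, a core that Kaiso binds when methylated and that reads the same on both strands, occurred 0 times in the Zbtb4 window and 2 times in the Zbtb33 window, where overlapping matches were counted. It was present in 33.8% of all windows. The Kaiso site TCCTGCNA was searched on both strands, was in neither window and was present in 4.03% of all windows. Windows were given for 6 of the 8 members, and these matches describe the letters only.

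The libraries held between 26612431 and 41059082 estimated counts. The 11 germinal center B cell markers listed were at 1 CPM or more in every library. The same held for 7 of 10 T cell, 7 of 8 myeloid, 5 of 5 plasma cell and 6 of 6 naive B cell markers. This threshold therefore does not single out the labelled cell type. Levels between libraries are given in CPM, counts relative to library size, scaled with TMM factors. Summed levels of T cell markers were 246.2 to 395.3 CPM over 10 genes, those of myeloid markers 76.4 to 763.1 CPM over 8 genes, those of plasma cell markers 1163.0 to 1743.6 CPM over 5 genes and those of naive B cell markers 683.6 to 1554.3 CPM over 6 genes. None of these markers was at 0 in all libraries. Of 5 erythroid markers, summed at 35.5 to 96.5 CPM, 1 was at 1 CPM or more in every library. This was Hbb-bt, the largest part of the sum at 31.8 to 80.3 CPM. KO replicate 6 stood apart on the first principal component, at 79.3 against at most 0.727 in the other libraries. The Y-linked genes split the libraries, with 1.99 to 6.94 summed CPM in HET replicates 1 and 2 and KO replicates 3, 4 and 6, and 208.1 to 279.4 in the others. Every WT library was on the high side and every HET library on the low side.

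Zbtb38 was read first, since it checks the genotype labels. Its level was 161.7 and 151.9 CPM in the 2 WT libraries and 117.4 and 105.8 CPM in the 2 HET libraries. In KO replicates 1 to 6 it was 25.6, 50.3, 34.8, 32.9, 27.6 and 18.6 CPM. The libraries lay in the order of gene dose, with no overlap between the genotypes. Between KO and WT, Zbtb38 fell by 2.31 on the log2 scale (standard error 0.274, edgeR adjusted p = 0.0734, lower in 6 of 6 KO libraries). It was the only gene of 14203 called at an adjusted p under 0.1, so 0.00704% of all genes were called. Leaving out any 1 library except KO replicate 2 or 6 ended the call (edgeR adjusted p = 0.26 to 1.0), with the log2 fold change between -2.49 and -2.19 over all such fits. DESeq2 made the call (adjusted p = 2.93e-09), as did edgeR with at least 10 counts in every library (adjusted p = 0.0219). It was lost by limma, on length-scaled counts, with the replicate block and with the Y-linked covariate, as given below. Against WT plus HET, Zbtb38 fell by 2.08 (standard error 0.232, edgeR adjusted p = 0.0104), again the only gene called among 13347, or 0.00749%. The call was not made by limma on log2(TPM + 1) and log2(TPM + 0.1) (log2 fold change -1.16 and -1.19, adjusted p = 0.686 and 0.695), on length-scaled counts (-1.04, edgeR adjusted p = 0.695) or with the replicate number as a block (-1.86, edgeR adjusted p = 0.601). DESeq2 made it (adjusted p = 7.52e-14), as did edgeR with at least 10 counts in every library (adjusted p = 0.00382).

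Between KO and HET the log2 fold change of Zbtb38 was -1.82 (standard error 0.261) and missed the threshold by edgeR (adjusted p = 0.128, 0 of 8 members called, 0.00697% of all genes). The call was made when KO replicate 2 or KO replicate 6 was left out (edgeR adjusted p = 0.0197 and 0.0505) and by DESeq2 (adjusted p = 2.58e-06). By edgeR, 4 of 8 members had an unadjusted p under 0.05 there, beside 10.2% of all genes. Between HET and WT the value was -0.49 (standard error 0.345, adjusted p = 0.873 by edgeR), although the 2 HET libraries were both below the 2 WT libraries. The study reported that its aligned reads within the deleted exon were completely lost in KO and intermediate in HET. The gene sums used here also count reads from exons outside it. The bulk libraries cannot separate fewer cells with the transcript from less of it per cell.

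Most of the Zbtb38 TPM that remained in KO was assigned to 1 short transcript model. TPM corrects for transcript length and sums to the same total in each library. The model ENSMUST00000128269.7 (929 bases, of which 553 lie in the coding exon and 376 upstream of it) held 31.2% ± 1.94 (SD, n = 2) of Zbtb38 TPM in WT, 42.9% ± 1.35 (SD, n = 2) in HET and 74.9% ± 5.03 (SD, n = 6) in KO. The KO libraries, at 68.9% to 81.1%, lay above the controls, at 29.8% to 43.8%. The difference to the controls was 37.9 percentage points (exact two-sided permutation test, p = 0.00952, the smallest these group sizes allow, 0.0762 after Benjamini-Hochberg adjustment over 8 members). Of the estimated counts of Zbtb38, which are not corrected for length, the short model held 6.4% ± 0.323 (SD, n = 2) in WT, 9.77% ± 0.303 (SD, n = 2) in HET and 34.6% ± 8.66 (SD, n = 6) in KO, a difference to the controls of 26.5 percentage points. The mean TPM of this model in KO was 97.5% of that in WT, against 12.5% for the longest model ENSMUST00000152594.7, 2.61% for ENSMUST00000126066.7 and 48.5% for ENSMUST00000140121.7. The share of bases outside the coding exon was 40.5%, 15.5%, 5.62% and 38.9% in these models, in the same order. Zbtb38 therefore fell less in TPM than in CPM, from 63.4 ± 0.207 (SD, n = 2) in WT to 25.8 ± 10.3 TPM (SD, n = 6) in KO.

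**Figure D1:**
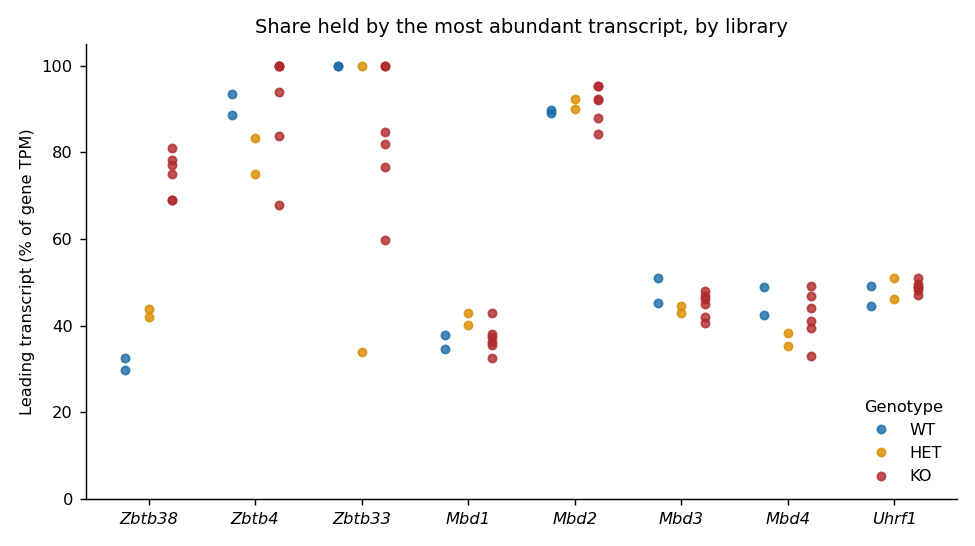
Percent of each gene's TPM held by its most abundant transcript model, with 1 point per library colored by genotype (WT and HET, n = 2 each, KO, n = 6). For Zbtb38 the 6 KO libraries sit between 68.9% and 81.1%, above the 4 control libraries, while for the other 7 genes KO and control libraries overlap.

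For the other 7 members the share of the leading transcript differed between KO and controls by -1.81 to 5.87 percentage points, and none passed (exact two-sided permutation tests, adjusted p = 0.914 to 0.952). A single model held most of Mbd2 (89.4% ± 0.504 in WT and 91.2% ± 4.34 in KO, SD, n = 2 and 6) and most of Zbtb4 (91.0% ± 3.42 in WT and 90.9% ± 13.0 in KO). Mbd1, Mbd3, Mbd4 and Uhrf1 were each spread over several models, with leading shares in WT of 36.3%, 48.1%, 45.7% and 46.8%.

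Zbtb4 and Zbtb33, the paralogs of Zbtb38, were the members with the lowest levels. Zbtb4, a zinc finger repressor that binds methylated CpG, was at 16.3 and 20.3 CPM in WT and at 13.6 and 20.7 CPM in HET. In KO replicates 1 to 6 it was at 17.2, 15.9, 19.3, 15.6, 13.3 and 15.4 CPM. The 3 genotypes overlapped, and 1 of 6 KO libraries lay above the WT mean. KO and WT differed by -0.18 on the log2 scale (standard error 0.23, adjusted p = 0.999 by edgeR). In linear terms the KO level was 0.88 times the WT level, with a 95% interval from 0.619 to 1.25.

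Zbtb33 encodes Kaiso, the paralog after which the family is named. It was at 3.86 and 1.49 CPM in WT, at 1.78 and 7.38 CPM in HET and, in KO replicates 1 to 6, at 3.43, 5.16, 5.28, 4.82, 2.59 and 0.12 CPM. The last value rests on 4 estimated counts, and the other libraries held 43 to 204. The HET libraries spanned most of the KO range, and both WT libraries lay within it. KO and WT differed by 0.41 on the log2 scale (standard error 0.969, adjusted p = 0.999 by edgeR), and the 95% interval of the fold ran from 0.301 to 5.87. A change of several-fold in Zbtb33 was therefore not detectable at this depth and spread.

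Set against the loss of Zbtb38, the paralogs contributed little transcript. Summed TPM of Zbtb4 and Zbtb33 was 4.39 ± 0.0212 (SD, n = 2) in WT, 5.29 ± 2.33 (SD, n = 2) in HET and 3.99 ± 1.28 (SD, n = 6) in KO. Single KO libraries lay between 2.39 and 5.77 TPM and the WT libraries at 4.38 and 4.41 TPM, so the groups overlapped. Zbtb38 made up 93.5% ± 0.0707 (SD, n = 2) of the TPM of the 3 paralogs in WT and 90.5% ± 3.89 (SD, n = 2) in HET. In KO it made up 86.4% ± 2.43 (SD, n = 6), counting all its transcript models. These models include bases outside the deleted exon, which holds the whole coding sequence. The KO share therefore does not measure coding transcript that remained. The summed TPM of the 3 was 67.8 ± 0.141 (SD, n = 2) in WT, 54.9 ± 2.26 (SD, n = 2) in HET and 29.8 ± 11.3 (SD, n = 6) in KO.

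**Figure D2:**
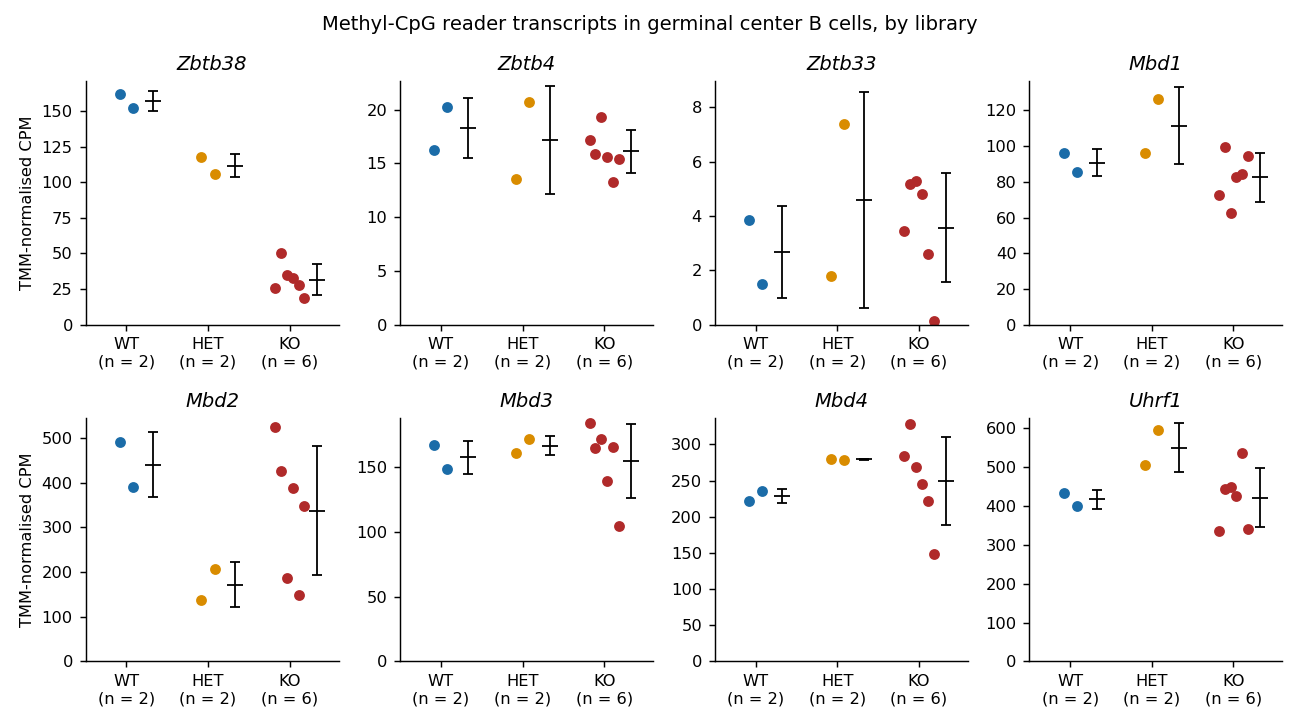
TMM-normalised CPM of the 8 readers on linear axes from 0, with 1 point per library by genotype and a black bar for the mean ± SD. Only Zbtb38 separates KO (18.6 to 50.3 CPM) from both control groups (105.8 to 161.7 CPM), and Mbd2 spreads from 148.8 to 525.7 CPM within KO.

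The methyl-CpG-binding domain genes and Uhrf1 were far more abundant than the paralogs. Between KO and WT none of the 7 other members was called by edgeR (adjusted p = 0.999 for each, 0 at an unadjusted p under 0.05, against 2.19% of all genes) and none had groups that did not overlap (6.58% of all genes). Their median log2 fold change was -0.02, beside 0.01 over all genes tested, and 3 of 7 were above 0. DESeq2 and limma called none of the 7 in this comparison either.

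Mbd1, a repressor that works with the H3K9 methyltransferase Setdb1, was at 96.0 and 85.4 CPM in WT and at 96.3 and 126.6 CPM in HET. KO libraries ranged from 62.3 to 99.3 CPM with a median of 83.6. The fold between KO and WT was 0.911 (95% interval 0.687 to 1.21). All 6 KO libraries lay below the HET mean of 111.5 ± 21.4 CPM (SD, n = 2), and against HET the difference was -0.43 on the log2 scale (standard error 0.18, unadjusted p = 0.0344, edgeR adjusted p = 0.452), but the groups overlapped.

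Mbd2, the methyl-binding subunit of NuRD, was the most variable of the well expressed members. It was at 492.4 and 389.7 CPM in WT and at 137.2 and 207.2 CPM in HET. KO replicates 1 to 6 were at 525.7, 426.5, 186.8, 388.6, 148.8 and 348.7 CPM. KO replicates 3 and 5 were in the HET range and the other 4 KO libraries were nearer to WT. The KO against WT fold was 0.765 (95% interval 0.418 to 1.4), and 1 of 6 KO libraries lay above the WT mean. The SD of log2 levels within genotypes was 0.632, larger than that of 88.5% of all genes and of 93.0% of the genes with 5 CPM or more. Uhrf1, at 0.228, and Mbd1, at 0.236, were below the median gene at 0.305.

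Mbd3, the NuRD subunit that takes the place of Mbd2, differed little between genotypes. It was at 166.4 and 148.0 CPM in WT, at 160.9 and 171.4 CPM in HET and between 104.5 and 183.8 CPM in KO with a median of 164.5. The lowest value was that of KO replicate 6. The KO against WT fold was 0.984 (95% interval 0.727 to 1.33).

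Mbd4, the glycosylase, was at 221.6 and 235.2 CPM in WT, at 279.9 and 279.2 CPM in HET and at 147.9 to 328.0 CPM in KO with a median of 256.8. The KO range enclosed both control groups. Its KO against WT fold was 1.09 (95% interval 0.753 to 1.58), with 4 of 6 KO libraries above the WT mean. Uhrf1, the maintenance methylation factor, was at 433.8 and 400.6 CPM in WT, at 505.6 and 595.2 CPM in HET and at 336.9 to 535.5 CPM in KO with a median of 435.9. Its KO against WT fold was 1.01 (95% interval 0.767 to 1.33).

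**Figure D3:**
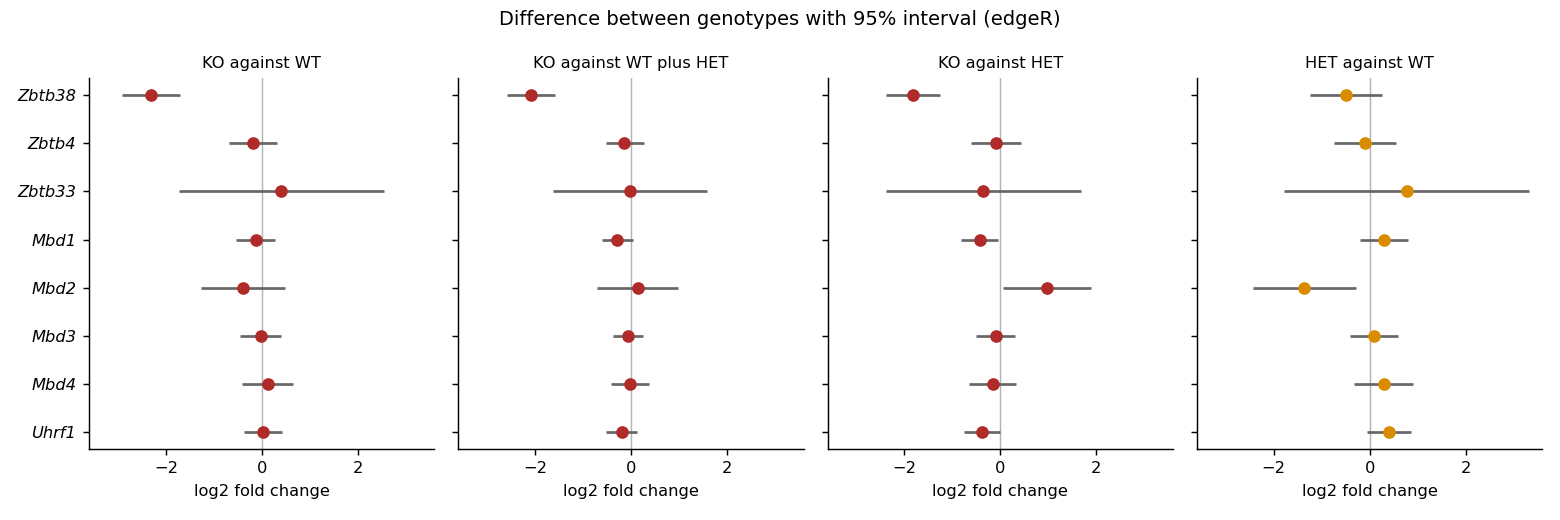
log2 fold change (first genotype minus second) of each reader in 4 comparisons, with the 95% interval of edgeR's fit as a line. Zbtb38 lies left of 0 in the 3 comparisons with KO. All other intervals between KO and WT cross 0, and that of Zbtb33 is the widest there, from -1.73 to 2.55. The intervals of Mbd1, Mbd2 and Uhrf1 between KO and HET, and of Mbd2 between HET and WT, leave out 0. None of these passed adjustment in the fits shown.

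Pooling WT and HET as controls, which share the KO libraries with the comparison above, gave 0 of 7 calls among the other members (edgeR, 0 at an unadjusted p under 0.05 against 6.3% of all genes, and none without overlap against 1.51%). The folds were 0.911 (95% interval 0.692 to 1.2) for Zbtb4, 0.985 (0.325 to 2.99) for Zbtb33 and 0.819 (0.654 to 1.02) for Mbd1. They were 1.1 (0.615 to 1.97) for Mbd2, 0.958 (0.774 to 1.18) for Mbd3, 0.983 (0.75 to 1.29) for Mbd4 and 0.874 (0.698 to 1.09) for Uhrf1. For Zbtb4, Mbd1, Mbd3, Mbd4 and Uhrf1 the upper end of the interval lay at or below 1.29 times the control level. The intervals of Mbd2 and Zbtb33 were wider and reached 1.97 and 2.99 times the control level. These controls include HET, which had 1 floxed allele with Vav-Cre. Against WT alone the upper ends were 1.25 for Zbtb4, 1.21 for Mbd1, 1.33 for Mbd3 and Uhrf1 and 1.58 for Mbd4. They were 1.4 for Mbd2 and 5.87 for Zbtb33.

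Between KO and HET, the comparison in which both groups carried Cre, 0 of 7 other members was called (edgeR adjusted p = 0.452 to 0.922), nor by DESeq2 or limma. Mbd1, Mbd2 and Uhrf1 were the 3 of these 7 with an unadjusted p under 0.05, beside 10.2% of all genes. In each of the 3 the KO and HET libraries overlapped (13.9% of all genes did not). The log2 fold change of Mbd2 was 0.97 (standard error 0.42, 5 of 6 KO libraries above the HET mean), and Uhrf1 of -0.38 (standard error 0.169, 6 of 6 below it). Their edgeR adjusted p-values were 0.469 and 0.482. The median log2 fold change of the 7 was -0.16, beside 0.07 over all genes. Markers of other cells also differed in this comparison. At an unadjusted p under 0.05, 5 of 8 myeloid, 5 of 10 T cell, 4 of 6 naive B cell, 3 of 5 erythroid and 4 of 4 Y-linked genes were higher in KO than in HET, with median log2 fold changes of 1.55, 1.13, 1.21, 3.11 and 7.11, and 2 of 10 markers of cycling cells were lower (median -0.22). Over all genes, 4.76% were higher and 5.46% lower in KO at that threshold. At the same threshold 1 of 5 plasma cell markers was also higher in KO (median log2 fold change 0.48). Of 11 germinal center B cell markers, 0 differed (median -0.1). None of these markers passed adjustment by edgeR. Summed CPM in HET and KO was 88.2 to 90.8 and 76.4 to 763.1 for myeloid markers, 246.2 to 260.2 and 287.0 to 377.7 for T cell markers, 781.3 to 781.6 and 683.6 to 1554.3 for naive B cell markers, and 35.5 to 38.8 and 55.6 to 96.5 for erythroid markers. The Y-linked level, as high or low side, was also added as a covariate, an alternative chosen after seeing the data. It varied within KO only, so the KO libraries alone set its effect. The log2 fold changes of Mbd1, Mbd2 and Uhrf1 between KO and HET were then -0.48, 0.84 and -0.44 (edgeR adjusted p = 0.438, 0.52 and 0.438). The part of the other markers was not tested.

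Between HET and WT, Mbd2 had the largest difference among the members, with both HET libraries below both WT libraries. It differed by -1.36 on the log2 scale (standard error 0.492, 95% interval of the fold 0.185 to 0.823), and it did not pass in the fit of all 10 libraries (unadjusted p = 0.0178, edgeR adjusted p = 0.709, 6.42% of all genes at an unadjusted p under 0.05). In a fit of the 4 HET and WT libraries alone it was called (edgeR adjusted p = 0.0329), as was Zbtb38 (edgeR adjusted p = 0.0877), among 523 genes in all. The share of all genes that this makes is not given here. The groups did not overlap for 5 of the 8 members (Zbtb38 and Mbd2 lower, Mbd1, Mbd4 and Uhrf1 higher in HET), beside 48.0% of all genes (24.5% lower and 23.5% higher). The same libraries differed in other markers. Summed CPM in WT and HET was 209.7 to 279.4 and 1.99 to 2.68 for the 4 Y-linked genes, 459.9 to 578.4 and 88.2 to 90.8 for myeloid markers, 1105.0 to 1155.5 and 781.3 to 781.6 for naive B cell markers, and 363.8 to 395.3 and 246.2 to 260.2 for T cell markers. Markers of cycling cells were at 4076.9 to 4856.6 in WT and 5596.5 to 5737.3 in HET. Germinal center B cell markers were at 8459.5 to 8817.3 in WT and 9000.3 to 9251.4 in HET. Plasma cell markers were at 1377.5 to 1582.0 in WT and 1178.7 to 1270.0 in HET. For erythroid markers the sums were 44.8 to 57.1 in WT and 35.5 to 38.8 in HET. With the Y-linked covariate the log2 fold change of Mbd2 between HET and WT was -1.1 (edgeR adjusted p = 0.673). Every WT library was on the high side and every HET library on the low side, so only the KO libraries set the covariate. This fit therefore cannot tell the Y-linked level apart from genotype between HET and WT. The part of the other markers was not tested.

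The order of the levels, compared per length in TPM, was Mbd2, Uhrf1, Mbd3, Mbd4, Mbd1, Zbtb38, Zbtb4 and Zbtb33 over the means of all 10 libraries. The means were 264.5, 180.3, 175.5, 135.4, 39.2, 38.1, 3.27 and 1.06 TPM. Among all genes, Mbd2 stood at the percentile 95.4 of TPM, Zbtb38 at 72.3, Zbtb4 at 33.8 and Zbtb33 at 24.1. Mbd2 exceeded Uhrf1 in 6 of 10 libraries and Uhrf1 exceeded Mbd3 in 6 of 10, so these neighbours were not separated beyond their spread. Mbd3 exceeded Mbd4, Mbd4 exceeded Mbd1, Zbtb38 exceeded Zbtb4 and Zbtb4 exceeded Zbtb33 in 10 of 10. Mbd1 exceeded Zbtb38 in 0 of 2 WT, 1 of 2 HET and 6 of 6 KO libraries. The Zbtb38 values in KO count all its transcript models, including bases outside the deleted coding exon. In HET, where Mbd2 was at 145.6 ± 45.5 TPM (SD, n = 2), Uhrf1 led the order at 229.8 ± 31.3 TPM (SD, n = 2).

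**Figure D4:**
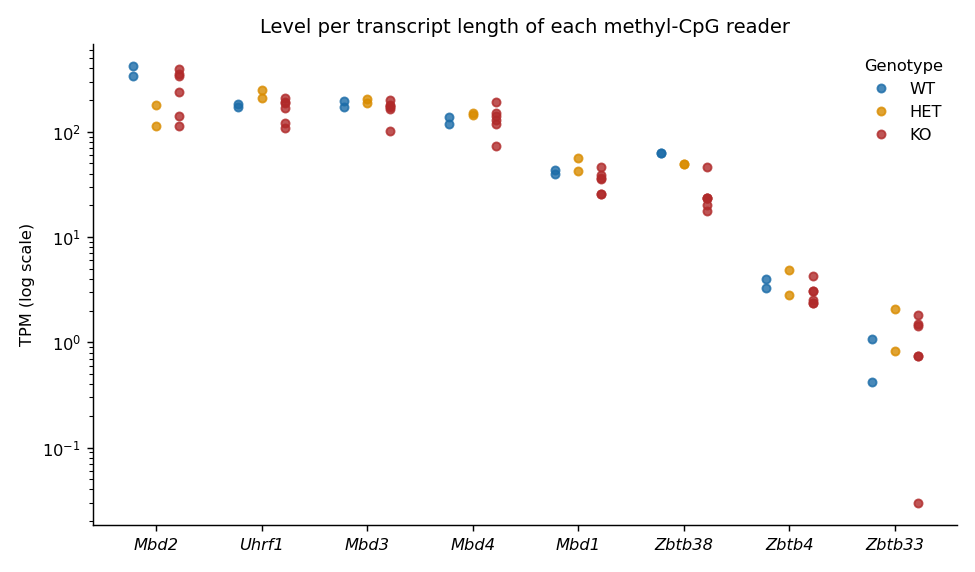
TPM of the 8 readers on a log axis, ordered by their mean over all libraries, with 1 point per library colored by genotype. Zbtb4 (2.36 to 4.88 TPM) and Zbtb33 (0.0297 to 2.06 TPM) lie below every other reader in all libraries, including Zbtb38 in KO (17.5 to 46.1 TPM). Zbtb38 in KO counts all its transcript models, including bases outside the deleted coding exon.

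Summed over the 8 readers, TPM was 982.6 ± 70.5 (SD, n = 2) in WT, 822.4 ± 105.5 (SD, n = 2) in HET and 793.8 ± 182.7 (SD, n = 6) in KO, with KO libraries from 593.8 to 1080.6. Mbd2 made up 38.9% ± 3.04 (SD, n = 2) of this sum in WT, 17.5% ± 3.25 (SD, n = 2) in HET and 32.6% ± 11.0 (SD, n = 6) in KO.

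Pairs among the 7 members other than Zbtb38 were correlated over the 10 libraries on log2(CPM + 1), which gave 21 pairs. None passed Benjamini-Hochberg adjustment. The lowest adjusted p was 0.13 for Pearson's r and 0.61 for Spearman's rho. Mbd2 and Uhrf1 ran in opposite directions, with r = -0.715 (permutation p = 0.0229, adjusted 0.13) and rho = -0.697 (permutation p = 0.0309, adjusted 0.61). Without HET replicate 1 and KO replicate 5, the libraries farthest from the median of Mbd2, r was -0.614, and within the 6 KO libraries it was -0.744. Mbd3 and Mbd4 had r = 0.818 (permutation p = 0.0181, adjusted 0.13) and rho = 0.43 (permutation p = 0.22, adjusted 0.61). Without KO replicates 4 and 6 this r was 0.332, so the relation rests on those libraries. Zbtb33 had r = 0.751 with Mbd3 and 0.766 with Mbd4 (permutation p = 0.0248 and 0.0171, adjusted 0.13 for both), with rho of 0.588 and 0.467 (permutation p = 0.0804 and 0.181, adjusted 0.61 for both). Without WT replicate 2 and KO replicate 6 these r were 0.0163 and 0.26.

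The genes most like each member were ranked by Pearson's r of log2(CPM + 1) after subtracting each genotype mean, over 10 libraries and 9526 genes. These values describe shared variation within genotypes and share library and depth. Each is the top of a search of 9526 genes over 10 libraries, so a high r says little by itself and was not tested. For Zbtb38 they were Rictor, the defining subunit of mTOR complex 2 (r = 0.969), Nfkb1, an NF-kappa-B subunit (r = 0.956), and Xntrpc (r = 0.956). For Zbtb4 they were AC109227.1, Ccdc130 and Ubxn4 (r = 0.938, 0.917 and 0.898), and for Zbtb33 Mnt, Tle1 and Pgpep1 (r = 0.995, 0.971 and 0.956). Mnt is a repressor that binds Max, and Tle1 is a Groucho corepressor. For Mbd1 they were Map3k4, Naa30 and Irs2 (r = 0.969, 0.952 and 0.932), and for Mbd2 Cep85l, Fam3c and the kinase gene Pim1 (r = 0.95, 0.931 and 0.923). For Mbd3 they were U2af2, Prkaca and Ehd2 (r = 0.986, 0.984 and 0.98), and for Mbd4 Lyrm1, Kcnh6 and Slc41a2 (r = 0.996, 0.984 and 0.977). For Uhrf1 they were Zfp952, the nuclear export factor gene Cse1l and Epg5 (r = 0.969, 0.964 and 0.962). None of the members was among the 3 genes most like another, which says little with 9526 genes searched. Zbtb33, at a mean of 3.59 CPM, was below the 5 CPM set for the search and could not appear. Without KO replicate 6, the r of these 24 pairs were 0.899 to 0.991.

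The proteins that these readers work with were followed in 6 lists of 56 different genes, of which 55 were tested in 3 comparisons and 54 against pooled controls. No gene was called by edgeR in any of the 4 comparisons, and none by limma. DESeq2 called 0 between KO and WT and against pooled controls, but Cbx5 and Tbl1x lower in KO than in HET and Cbx5 higher in HET than in WT, both named after their values were seen. Cbx5 encodes heterochromatin protein HP1 alpha and Tbl1x a subunit of the NCoR complex. Of the 14354 genes that passed the filter, DESeq2 called 458 between KO and HET and 125 between HET and WT. In the fit of the 4 HET and WT libraries alone, 7 of 54 partner genes were called (6 higher and 1 lower in HET), beside 523 genes called in all. The share of all genes that this makes is not given here, so the partner count was not set against it. Between KO and WT, 1 of 55 (1.82%) had an unadjusted p under 0.05, beside 2.19% of all genes. Against WT plus HET, 4 of 54 (7.41%, all lower in KO) did, beside 6.3% of all genes in either direction and 4.05% lower. Between KO and HET it was 9 of 55 (16.4%, all lower in KO), beside 10.2% of all genes, of which 4.76% were higher and 5.46% lower. In this comparison the myeloid, T cell, naive B cell, erythroid and Y-linked markers had the positive median log2 fold changes given above, and their part in the count was not tested. Between HET and WT it was 5 of 55 (9.09%, 4 of them higher in HET), beside 6.42% of all genes in either direction and 2.44% higher.

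The corepressors and cofactors of the Kaiso family (12 genes tested) had a median log2 fold change of 0.05 between KO and WT. Ctbp1, a corepressor that binds ZBTB38, was at 256.0 ± 12.3 TPM in WT (SD, n = 2) and 213.1 ± 31.9 TPM in KO (SD, n = 6), with a log2 fold change of -0.1 (standard error 0.125). Gps2 and Ncor1, of the NCoR complex, had log2 fold changes of 0.04 and 0.13. The subunits of NuRD (13 genes tested) had a median of 0.06, with 0.11 for the histone chaperone gene Rbbp7, 0.06 for the deacetylase gene Hdac1 and 0.16 for Cdk2ap1. The partners of Mbd1 in heterochromatin and chromatin assembly (6 genes tested) had a median of 0.06, with 0.13 for the H3K9 methyltransferase gene Suv39h1, 0.25 for Chaf1b and -0.19 for Chaf1a. Each of these named genes had an edgeR adjusted p of 0.999.

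The partners of Uhrf1 (7 genes tested) had a median of 0.04 between KO and WT and of -0.2 between KO and HET. Pclaf, a PCNA-associated factor, was the 1 gene with an unadjusted p under 0.05 between KO and WT (log2 fold change 0.52, standard error 0.23, edgeR adjusted p = 0.999). Pcna, the replication clamp, and the ligase gene Lig1 had log2 fold changes of 0.27 and -0.11 there. Dnmt1, named after its values were seen, was at 148.0 ± 11.0 TPM in WT (SD, n = 2), 201.6 ± 14.7 in HET (SD, n = 2) and 124.8 ± 39.0 in KO (SD, n = 6). It differed by -0.61 (log2) between KO and HET (standard error 0.202, adjusted p = 0.373 by edgeR) and by -0.14 between KO and WT (standard error 0.219, adjusted p = 0.999 by edgeR). The repair genes that work with Mbd4 (10 genes tested) had medians of 0.1 between KO and WT and 0.0 between KO and HET, with -0.19 for Parp1, 0.07 for Xrcc1 and 0.16 for the flap endonuclease gene Fen1 between KO and WT.

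Other genes that encode a methyl-CpG reader or a related domain (8 of 9 tested) had log2 fold changes of -0.2 to 0.14 between KO and WT, with a median of 0.0. Uhrf2, the paralog of Uhrf1, had the highest level at 40.4 ± 5.71 TPM in WT (SD, n = 2), 50.9 ± 5.22 in HET (SD, n = 2) and 37.8 ± 6.39 in KO (SD, n = 6). Its log2 fold change was 0.01 between KO and WT (standard error 0.159). Between KO and HET it was -0.42 (standard error 0.151, edgeR adjusted p = 0.404). Between HET and WT it was 0.43 (standard error 0.189, edgeR adjusted p = 0.767). Setdb1 and Baz2b followed, both between 23.9 and 27.3 TPM in the genotype means. Zfp57, a reader active at imprinted regions, was the gene not tested, with 0.0 TPM in the mean of each genotype.

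**Figure D5:**
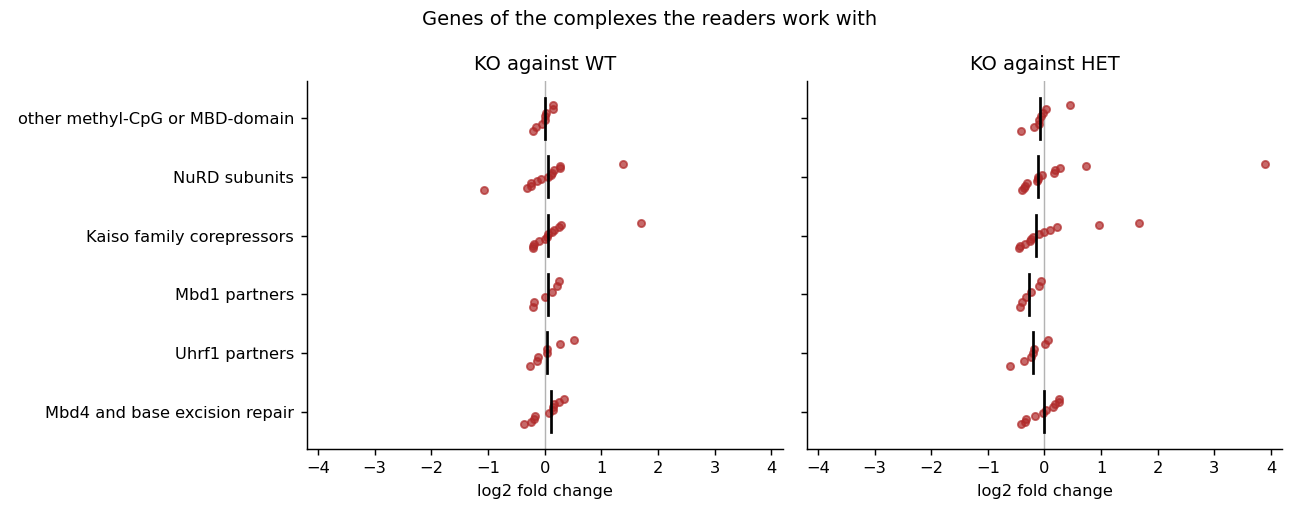
log2 fold change of each gene of the 6 partner lists (points) with the list median (black line), for KO against WT on the left and KO against HET on the right. The medians lie between 0.0 and 0.1 against WT and between -0.28 and 0.0 against HET, and no point passed the threshold.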

How the data were processed

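Germinal center B cells of 2 ZBTB38 WT, 2 HET and 6 KO libraries were measured by RNA-seq, and groups came from the sample labels. One further surface marker of the sort is not reported here. The authors prepared cDNA with SMART-Seq kits, sequenced paired-end reads and, per the labels' processing notes, used Salmon 0.9.1 and DESeq2 2.11.40.6. Transcripts were those of Gencode vM17, and Salmon's options were not given in the sources used here. Per transcript, the authors deposited unnormalized estimated counts and TPM values, which Salmon computed from these counts and effective lengths. Every deposited transcript named a coding sequence, and 46.7% of the estimated counts were not whole numbers (tolerance 1e-06).

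Estimated counts and TPM of 64019 transcripts were summed over 22380 genes, and counts were rounded. Tests used edgeR 4.0.16 in R 4.3.3 (quasi-likelihood, TMM factors 0.924 to 1.07, filterByExpr, Benjamini-Hochberg over all genes, threshold 0.1). KO against WT (14203 genes) and KO against WT plus HET (13347) were each fitted on their own libraries, and KO against HET and HET against WT (14354) on all 10 with a term per genotype. Alternatives included DESeq2 1.42.0, limma 3.58.1 on log2(TPM + 1) and log2(TPM + 0.1), other filters, length-scaled counts, a replicate block and each library left out. Permutation tests used scipy 1.17.1 and were exact for transcript shares and with 100000 draws for correlations. The fits were tested on simulated data. Totals of 26612431 to 41059082 estimated counts set the counting error, which leaves out PCR duplication. Libraries of a genotype differed by far more than counting noise (chi-square per gene of 25.7 to 162). Positions came from Gencode vM21 (GRCm38) and upstream windows from RefSeq (GRCm38.p6).

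The members and lists were chosen with earlier results of these data known. The genes named are the 8 members, the 3 genes with the highest TPM in each partner list and any with an adjusted p under 0.1, the 3 genes most like each member among those with 5 CPM or more, and at most 3 markers per list, besides those said to be named after their values were seen.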

Additional observations from a re-analysis of the deposited data

Results flagged for a closer look

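Over the 8 members in CPM and TPM, 16 groups of 6 KO libraries were checked for 1 library far from the rest, of which chance would flag about 0.8, and 2 were flagged. Zbtb38 TPM in KO replicate 2 was 46.1, against 17.5 to 23.7 in the other 5 KO libraries, a gap of 0.785 of the group's range (critical value 0.625). The same library also had the highest Zbtb38 in CPM, at 50.3, and the short model ENSMUST00000128269.7 made up 77.1% of its Zbtb38 TPM. Mbd3 TPM in KO replicate 6 was 102.8, against 165.1 to 199.4 in the other 5, a gap of 0.645 of the range. That library was also the lowest KO library for Zbtb33 and Mbd4 and stood apart on the first principal component.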

How the results depend on the processing

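Of 690 alternative values for single members, 616 kept their direction and side of the threshold, 53 changed sign, 15 lost a call and 6 gained one. No member other than Zbtb38 was called in any comparison with KO under any alternative run. Between KO and WT, genes called were 5 by DESeq2, 0 and 3 by limma on log2(TPM + 1) and log2(TPM + 0.1), 0 on length-scaled counts, 2 in 1 fit of all 10 libraries, 0 at a threshold of 0.05, 0 with the Y-linked covariate, and 0 to 2 with 1 library left out. Members called were then 0 in both limma fits, on length-scaled counts, at 0.05 and with the Y-linked covariate, and 0 to 1 with 1 library left out. The log2 fold change of Zbtb38 was -1.34 and -1.37 by limma (adjusted p = 0.662 and 0.669), -1.19 on length-scaled counts (edgeR adjusted p = 1.0), -2.18 with the Y-linked covariate (edgeR adjusted p = 0.499) and -2.49 to -2.19 with 1 library left out. Against WT plus HET, genes called were 18 by DESeq2, 0 in both limma fits and on length-scaled counts, and 1 to 2 with 1 library left out, and members called were 0 in those limma and length-scaled fits. Between KO and HET, genes called were 458 by DESeq2, 6 by limma on log2(TPM + 0.1), 2 with no filter, 0 with at least 10 counts in every library, 3 with the Y-linked covariate, 0 in the fit of the groups alone and 0 to 5 with 1 library left out, and members called were 1 with DESeq2 or no filter and 0 to 1 with 1 library left out. Between HET and WT, genes called were 125 by DESeq2, 5 by limma on log2(TPM + 0.1), 0 with at least 10 counts, 2 with the Y-linked covariate, 523 in the fit of the groups alone, where 2 members were called, and 0 to 16 with 1 library left out. The cause was not tested.

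Same-numbered libraries had correlations from -0.00806 to 0.127 after subtracting genotype means, with 2 pairs per comparison. With 2 WT and 2 HET libraries, the deviations within each of these groups mirror each other. These values therefore cannot decide whether the replicate numbers pair the libraries. With the replicate block, genes called were 6, 0, 4 and 66 in the 4 comparisons, members called were 0 in KO against WT and in KO against WT plus HET, and the log2 fold change of Zbtb38 between KO and WT was -2.12 (edgeR adjusted p = 0.111). The block also changed the sign of uncalled values, between KO and WT to 0.11 for Mbd2, 0.15 for Mbd3 and -0.11 for Uhrf1, against pooled controls to 0.25 for Zbtb33, 0.11 for Mbd3 and 0.27 for Mbd4, and between KO and HET to 0.06 for Mbd3 and 0.13 for Mbd4.

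Other sign changes of log2 fold changes were of values not called in either fit, the largest without HET replicate 2, where Zbtb33 turned from -0.36 to 1.0 between KO and HET and from 0.77 to -0.59 between HET and WT. Between KO and WT, Uhrf1 was -0.14 and -0.15 by limma and Mbd3 0.12 with the Y-linked covariate. Against pooled controls, Zbtb33 was 0.01 with that covariate and Mbd4 0.05 on length-scaled counts. Between HET and WT, Zbtb4 was 0.03 in both limma fits and 0.1 on length-scaled counts. With 1 library left out, ranges across 0 between KO and WT were -0.12 to 1.26 for Zbtb33, -0.11 to 0.07 for Mbd3 and -0.06 to 0.08 for Uhrf1, and against pooled controls -0.28 to 0.58 for Zbtb33, -0.1 to 0.46 for Mbd2, -0.12 to 0.02 for Mbd3 and -0.12 to 0.08 for Mbd4. They were -0.36 to 0.25 for Zbtb4 and -1.05 to 1.0 for Zbtb33 between KO and HET, and -0.43 to 0.18 for Zbtb4, -0.59 to 1.62 for Zbtb33 and -0.0 to 0.17 for Mbd3 between HET and WT. For the leading transcript, KO against WT alone and each set with 1 library left out called 0 members, where the smallest p (0.0714, and 0.0159 or 0.0238) could not pass after adjustment over 8. Its difference for Zbtb38 was 35.4 to 40.1 points with 1 library left out and 26.5 on estimated counts. Against WT alone it was -0.118 points for Zbtb4, -16.1 for Zbtb33, 0.843 for Mbd1 and -3.47 for Mbd4, on estimated counts it was -0.548 for Zbtb4, and with 1 library left out it was -2.18 to 0.451 for Mbd3, -1.0 to 3.54 for Mbd4 and -16.1 to 5.92 for Zbtb33.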
